A study of Mus musculus with 2 samples.

Results

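Rab GTPases are small GTP-binding proteins that direct membrane traffic. A total of 50 Rab genes was represented among the 12393 genes of a mouse expression array, chosen by symbol alone: Rab, a number and at most 1 letter. Their transcripts were compared between primitive and maturing haematopoietic stem cells (HSC). Primitive HSC and maturing HSC were each represented by 1 array. Both populations came from mouse bone marrow by flow cytometric sorting after 30 min in culture, and neither was treated. Strain, age and the sorted surface phenotype are not stated in the labels. Each array carried cRNA made from a phage cDNA library, for which poly(A)-primed cDNA had been amplified by PCR, size fractionated and cloned, so each value describes a cloned library. Without replicates no difference has a replicate check, and no p-value is given.

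Each Rab cycles between a GTP-bound form on a membrane and a GDP-bound form held in the cytosol by a GDP dissociation inhibitor. Exchange factors load GTP, GTPase-activating proteins end the active state, and effectors such as tethers and motor adaptors bind the active form. Different Rabs mark different membranes, from the Golgi to early, recycling and late endosomes and secretory granules. In blood cells, Rabs serve receptor uptake and recycling, phagocytosis and the release of granules.

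The promoter windows below belong to the members with the largest ratios in each direction among those listed in the RefSeq promoter table, which held 42 of the 50 genes. Each window runs from 250 bases before to 50 bases after the annotated start, in GRCm38.p6, and is written 5′ to 3′ on the strand of the gene. Capitals mark matches, on either strand, to the GC box (GGGCGG), the CCAAT box (CCAAT), the TATA box (TATAAA), the E-box (CACGTG), the core of the cAMP response element (TGACG) and a GATA motif (AGATAA). Rab11a (chr9:64737707-64738006, minus strand) and Rab17 (chr1:90967618-90967917, minus strand) were higher in primitive HSC. Rab21 (chr10:115315542-115315841, minus strand) and Rab2b (chr14:52279346-52279645, minus strand) were higher in maturing HSC, each by the gene's brightest probe set.
Rab11a: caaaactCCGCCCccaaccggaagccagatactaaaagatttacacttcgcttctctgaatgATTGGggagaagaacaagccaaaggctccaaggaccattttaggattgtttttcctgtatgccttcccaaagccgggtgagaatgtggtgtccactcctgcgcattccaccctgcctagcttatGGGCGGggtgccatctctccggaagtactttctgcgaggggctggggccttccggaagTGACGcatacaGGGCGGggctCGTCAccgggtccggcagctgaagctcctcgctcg
Rab17: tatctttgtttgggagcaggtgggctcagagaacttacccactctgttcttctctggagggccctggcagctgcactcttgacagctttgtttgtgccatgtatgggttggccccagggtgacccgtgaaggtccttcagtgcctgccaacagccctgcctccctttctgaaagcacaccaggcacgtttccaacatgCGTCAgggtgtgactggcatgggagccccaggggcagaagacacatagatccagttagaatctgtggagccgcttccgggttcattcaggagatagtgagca
Rab21: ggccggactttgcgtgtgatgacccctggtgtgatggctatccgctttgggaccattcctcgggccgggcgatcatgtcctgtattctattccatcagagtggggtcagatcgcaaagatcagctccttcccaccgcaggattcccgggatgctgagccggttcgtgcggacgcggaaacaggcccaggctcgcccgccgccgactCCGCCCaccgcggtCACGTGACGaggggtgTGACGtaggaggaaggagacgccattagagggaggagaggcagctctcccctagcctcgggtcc
Rab2b: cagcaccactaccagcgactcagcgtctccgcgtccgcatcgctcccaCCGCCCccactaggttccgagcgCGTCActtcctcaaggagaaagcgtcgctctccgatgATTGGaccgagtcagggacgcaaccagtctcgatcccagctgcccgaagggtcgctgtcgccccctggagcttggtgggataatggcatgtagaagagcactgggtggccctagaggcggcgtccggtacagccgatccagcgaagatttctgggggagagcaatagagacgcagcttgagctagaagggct

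Rab11a had 3 GC boxes, 1 CCAAT box and 2 cAMP response element cores, and 16 CpG dinucleotides. The Rab17 window held 1 cAMP response element core and no match to the other motifs, with 5 CpG. Rab21 had 26 CpG, 1 GC box, 1 E-box and 2 cAMP response element cores, of which 1 overlapped the E-box. Rab2b had 25 CpG with 1 GC box, 1 CCAAT box and 1 cAMP response element core. Over all 54 windows of the Rab genes, 68.5% held a GC box, against 35.7% of the 32851 windows in the table, and 3.70% held a TATA box, against 13.6%. Rab windows held a cAMP response element core in 46.3%, against 20.8% of all windows, an E-box in 11.1%, against 7.15%, and a CCAAT box in 42.6%, against 37.4%. The GATA motif was in 3.70% of Rab windows and 11.2% of all windows. The median Rab window had 20 CpG dinucleotides and a GC content of 61.2%, against 7 and 52.7% over all windows, so the typical Rab window was richer in GC than the typical window of the table. The median log2 ratio of primitive over maturing HSC was 0.02 over the 28 measured Rabs with a GC box and 0.12 over the 9 without. A match describes the letters of the window, not a bound site.

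The family as a whole lay close to the middle of the array. Of the 50 Rab genes, 43 were measured, meaning that the intensity of the gene's brightest probe set exceeded the floor of 441.1, the pooled median of all non-control probe sets, on at least 1 array. Among these 43 the median log2 ratio of primitive over maturing HSC was 0.08, against 0.07 over all 8852 measured genes. In primitive HSC 23 Rabs were higher and 20 were lower, so that 53.5% of the Rabs and 52.7% of all genes were on the higher side. Within 2-fold of equality lay 33 of the 43 Rabs (76.7%), against 66.7% of all measured genes, counting bounds at their limit. With the arrays scaled instead to their hybridisation controls, 9 of 42 Rabs were higher and 33 lower in primitive HSC, as the median of all genes moved to -0.74 and that of the Rabs to -0.79, so directions here are relative to the trimmed mean. Because these are bulk samples, fewer cells of a type and less RNA per cell cannot be told apart.

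In either direction 11.6% of the measured Rabs were at least 4-fold apart, against 8.13% of all measured genes, which was not tested. Rab11a, Rab37 and Rab17 were at least 4-fold higher in primitive HSC, 3 of 43 members (6.98%) against 3.45% of all measured genes. On the maturing side 2 members, Rab18 and Rab21, passed 4-fold, 2 of 43 (4.65%) against 4.69%. At 2-fold, 7 members (16.3%) were higher in primitive HSC, against 15.6% of all genes, and 3 members (6.98%) were higher in maturing HSC, against 17.6%. The 2-fold share on the maturing side lay below the background and the 2-fold share on the primitive side near it, and neither was tested. A gene at the floor on 1 array has only a bound, which held for 8 Rabs on the primitive side and 5 on the maturing side. Another 7 Rabs were below the floor on both arrays: Rab3a, Rab3b, Rab7b, Rab20, Rab24, Rab30 and Rab34. Their brightest probe sets read at most 305 in primitive HSC and at most 347 in maturing HSC.

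**Figure D1:**
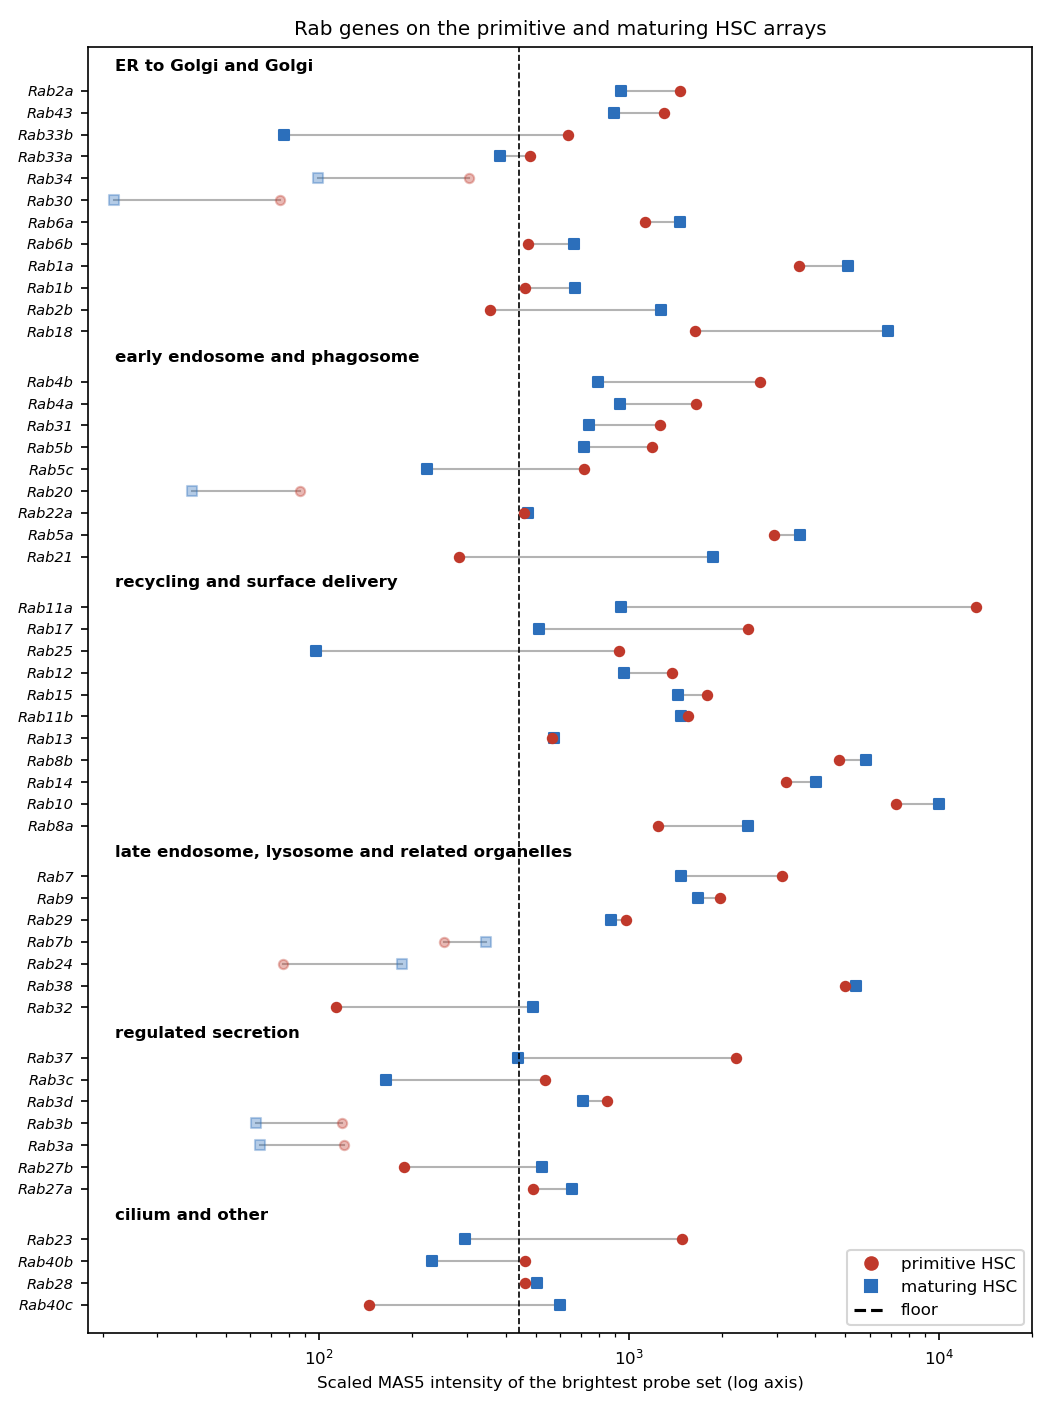
Scaled intensity (log axis) of the brightest probe set of each of the 50 Rab genes in primitive HSC (red circles) and maturing HSC (blue squares), grouped by compartment, with 1 array per population. The dashed line is the floor of 441.1, pale pairs are the 7 genes below it on both arrays, and Rab11a shows the widest gap among genes above it on both arrays, 13199 against 945.

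Of 10 measured Rabs of the ER-to-Golgi and Golgi group, 4 were higher and 6 lower in primitive HSC, where 52.7% of all measured genes were higher. Their median log2 ratio was -0.43, and the difference from all genes was not tested. Rab18, a Rab of the endoplasmic reticulum and lipid droplets, read 1635 in primitive HSC and 6840 in maturing HSC, a log2 ratio of -2.06 or 4.18-fold higher in maturing HSC. Its other measured probe set went the same way, with a bound of -0.46. Rab2b, which like Rab2a acts between the Golgi and the endoplasmic reticulum, read 356 in primitive HSC, below the floor, and 1265 in maturing HSC, at least 2.87-fold higher on the maturing array. Its 3 other measured probe sets gave 1.12 (a bound; 959 in primitive HSC and 436 in maturing HSC), 0.48 and a bound of -0.11, so Rab2b had no agreed direction.

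The remaining Golgi members had values or bounds nearer 0. Rab1a, needed for transport out of the endoplasmic reticulum, read 3542 in primitive HSC and 5094 in maturing HSC (log2 ratio -0.52). Its close relative Rab1b read 461 in primitive HSC and 670 in maturing HSC, a ratio of -0.54. The Golgi retrograde regulator Rab6a read 1124 in primitive HSC and 1457 in maturing HSC (-0.37), and its relative Rab6b 471 and 664 in the same order (-0.50). These 4 genes were each lower in primitive HSC by less than 2-fold, and second probe sets of Rab1a (-0.23) and Rab6a (-0.16) lay on the same side. Rab2a read 1466 in primitive HSC and 944 in maturing HSC (0.64), and Rab43, a Rab of Golgi structure, read 1297 in primitive HSC and 897 in maturing HSC (0.53). Rab33b, which also serves autophagy, had a bound of 1.44-fold toward primitive HSC (637 against 77.2), and Rab33a had a bound of 0.12 (478 in primitive HSC and 384 in maturing HSC).

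Of 8 measured early endosome Rabs, 5 were higher and 3 lower in primitive HSC (62.5% higher, near the 52.7% of all genes), and the median log2 ratio was 0.71. This median was -0.04 once multi-transcript probe sets were left out, meaning those whose identifier marks them as able to bind more than 1 transcript, and -0.42 with both arrays scaled to their hybridisation controls. Rab4b, a Rab of rapid recycling from early endosomes, read 2648 in primitive HSC and 795 in maturing HSC, a log2 ratio of 1.74 or 3.33-fold higher in primitive HSC. Rab4a read 1647 in primitive HSC and 936 in maturing HSC (0.82), and its second measured probe set gave a bound of 0.91 in the same direction. Both Rab4 genes were therefore higher on the primitive array.

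Rab5 proteins drive the fusion of early endosomes, and the 3 Rab5 genes were not all on the same side of equality. Each had 1 probe set and a value or bound within 2-fold, so these sides have no second reading. Rab5b read 1187 in primitive HSC and 715 in maturing HSC (0.73). Rab5c read 713 in primitive HSC and 223 in maturing HSC, a bound of 0.69. Rab5a read 2941 in primitive HSC and 3556 in maturing HSC (-0.27). Rab31, a Rab of endosomes and the trans-Golgi network, read 1258 in primitive HSC and 742 in maturing HSC (0.76), but its other probe set read 50.6 in primitive HSC and 1519 in maturing HSC, a bound of -1.78. Rab22a was nearly level, with 457 in primitive HSC and 471 in maturing HSC, and its 3 probe sets ran from -0.24 to 0.50.

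Rab21, which serves integrin uptake, read 283 in primitive HSC, below the floor, and 1863 in maturing HSC, at least 4.23-fold higher on the maturing array. Its second probe set was level, with 566 in primitive HSC and 555 in maturing HSC and a log2 ratio of 0.03. The Rab21 difference therefore rested on 1 of 2 probe sets.

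The recycling and surface delivery group held the largest difference of the family. Of 11 measured members, 6 were higher and 5 lower in primitive HSC. Their median log2 ratio was 0.08, with values from -0.97 to 3.80. Rab11a, the Rab of the slow recycling endosome, read 13199 in primitive HSC and 945 in maturing HSC, a log2 ratio of 3.80 or 14.0-fold higher in primitive HSC. That is a multi-transcript probe set. The other Rab11a probe set read 474 in primitive HSC and 812 in maturing HSC, a log2 ratio of -0.78, so the 2 probe sets of Rab11a pointed in opposite directions. Its relative Rab11b was level, with 1552 in primitive HSC and 1472 in maturing HSC (0.08).

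Rab17 and Rab25, known from polarised epithelial cells, were also higher in primitive HSC. Rab17 read 2429 in primitive HSC and 512 in maturing HSC, a log2 ratio of 2.25 or 4.75-fold higher in primitive HSC, and its second probe set gave a bound of 0.28. The Rab25 probe set read 927 in primitive HSC and 97.5 in maturing HSC, at least 2.10-fold higher in primitive HSC. Rab12, which directs transferrin receptor to degradation, read 1380 in primitive HSC and 963 in maturing HSC (0.52), and Rab15, a Rab of endocytic recycling, read 1793 in primitive HSC and 1435 in maturing HSC (0.32).

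The members named next had ratios below 0 by their brightest probe sets. Rab8a, which directs vesicles to the plasma membrane and the cilium, read 1244 in primitive HSC and 2429 in maturing HSC (-0.97). Rab8b read 4756 in primitive HSC and 5832 in maturing HSC (-0.29). Rab10, a Rab of exocytic and endosomal carriers, read 7275 in primitive HSC and 10051 in maturing HSC (-0.47), and its second measured probe set read 479 in primitive HSC and 2295 in maturing HSC (-2.26). Both Rab10 probe sets were lower in primitive HSC, by different amounts. Rab14, which links the trans-Golgi network with endosomes, read 3209 in primitive HSC and 4003 in maturing HSC (-0.32), with 5 measured probe sets from -1.23 to 0.49. Rab13, a tight junction Rab, was level, at 563 in primitive HSC and 574 in maturing HSC.

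Of 5 measured late endosome and lysosome Rabs, 4 had a value or bound within 2-fold, and the median log2 ratio was 0.16. Rab7, which controls the step from late endosome to lysosome, read 3129 in primitive HSC and 1470 in maturing HSC (1.09). Its other probe set read 766 in primitive HSC and 1315 in maturing HSC (-0.78), so Rab7 had no agreed direction. Rab9, which returns receptors from late endosomes to the Golgi, read 1972 in primitive HSC and 1670 in maturing HSC (0.24). Rab29, a Rab of the trans-Golgi network and lysosomes, read 977 in primitive HSC and 875 in maturing HSC (0.16).

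Rab32 and Rab38 act in the making of lysosome-related organelles such as melanosomes and platelet dense granules. Rab38 read 4994 in primitive HSC and 5420 in maturing HSC (-0.12). Rab32 was below the floor in primitive HSC, at 113, and just above it in maturing HSC, at 489, a bound of -0.15. The Rab32 bound is only a lower limit of its difference.

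Secretory Rabs included a single member with a large difference. Of 5 measured members, 3 were higher and 2 lower in primitive HSC, with a median of 0.25. Rab37, known from mast cell granules, read 2224 in primitive HSC and 439 in maturing HSC, which is just under the floor, so its only probe set gives a bound of at least 5.04-fold in favour of primitive HSC. Rab27a, needed for the docking of lytic and other secretory granules, read 490 in primitive HSC and 656 in maturing HSC (-0.42), but another probe set read 629 in primitive HSC and 47.6 in maturing HSC, a bound of 0.51. Rab27b, a platelet granule Rab, was below the floor in primitive HSC at 187 and read 524 in maturing HSC (a bound of -0.25), with a second probe set at a bound of -0.03. Rab3 proteins act in regulated exocytosis. Rab3d read 847 in primitive HSC and 711 in maturing HSC (0.25), with 4 probe sets from -0.77 to 0.97, and Rab3c had a bound of 0.29 (538 in primitive HSC and 165 in maturing HSC).

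The last 4 members have other roles. Rab23, an inhibitor of Hedgehog signalling, read 1485 in primitive HSC and 295 in maturing HSC, at least 3.37-fold higher in primitive HSC. Its second probe set was below the floor on both arrays, as were second probe sets of Rab28 and Rab40c. Rab28, a Rab of the cilium, read 463 in primitive HSC and 506 in maturing HSC (-0.13). Rab40b and Rab40c carry a SOCS box for ubiquitin ligase assembly. Rab40b had a bound of 0.07 (463 in primitive HSC and 232 in maturing HSC) and Rab40c a bound of -0.44 (145 in primitive HSC and 598 in maturing HSC).

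Probe sets of the same Rab disagreed in direction in 11 of 18 genes. Of these 18 Rabs with more than 1 measured probe set, all probe sets pointed the same way in 7 (38.9%), against 55.6% of 2764 such genes on the array. The median spread between the lowest and highest log2 ratio of a gene was 1.77 for the Rabs and 0.97 for all such genes. The number of probe sets per Rab ran up to 7, for Rab2a, and was not matched between the Rabs and other genes. At least 4-fold apart were the probe sets of 6 of the 18 Rabs (33.3%), against 15.9% of all such genes. These 6 were Rab11a, Rab2a, Rab2b, Rab31, Rab43 and Rab21. Rab2a had 4 measured probe sets from -2.25 to 0.64, and the lowest of them read 129 in primitive HSC and 2096 in maturing HSC. A second Rab43 probe set read 97.2 in primitive HSC and 1560 in maturing HSC, a bound of -1.82 against 0.53 for the brighter one.

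**Figure D2:**
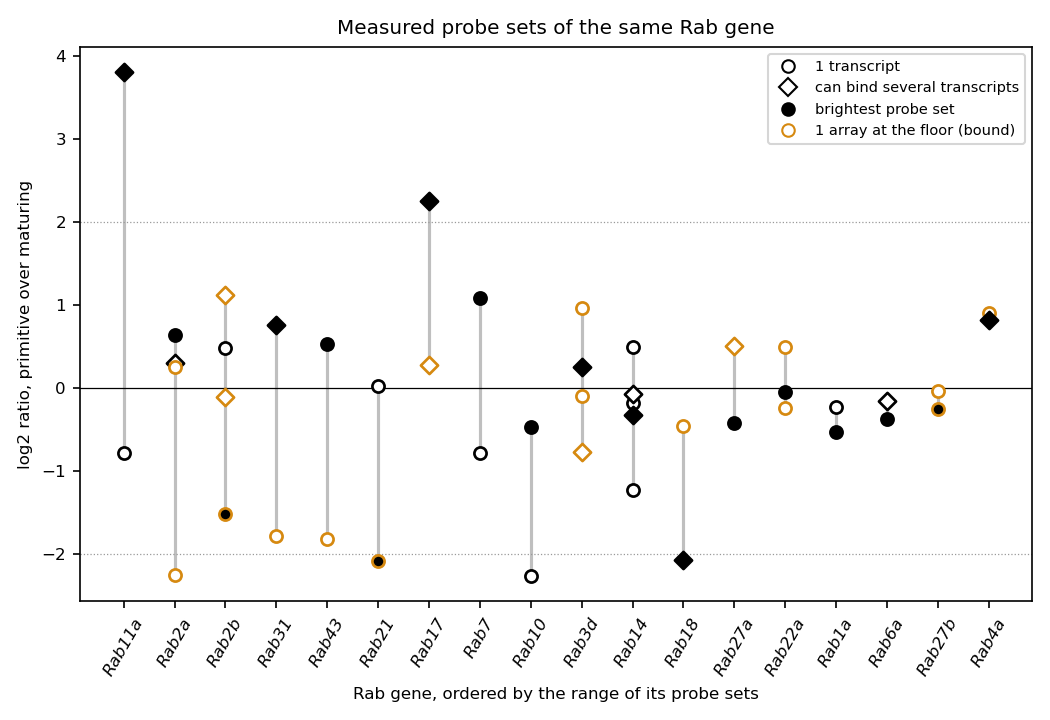
Log2 ratio (primitive over maturing HSC) of every measured probe set of the 18 Rab genes with more than 1, ordered by spread. Diamonds are multi-transcript probe sets, filled symbols the brightest probe set of the gene, orange outlines bounds, and Rab11a runs from -0.78 to 3.80.

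The balance of directions among the Rabs differed between types of probe set. Of 19 measured multi-transcript Rab probe sets, 13 were higher in primitive HSC and 6 lower, with a median log2 ratio of 0.32. Of the 52 others, 21 were higher and 31 lower, with a median of -0.12. Over the whole array, 49.5% of the first type and 49.2% of the second were higher in primitive HSC, and their medians were -0.01 and -0.01. Rab11a, Rab17, Rab18, Rab23 and Rab4b rested on such probe sets, whereas Rab37, Rab21 and Rab25 did not. The transcripts bound by such a probe set can be of the same gene, and whether any of them also binds a paralogue was not tested.

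In 8 of 11 Rab subfamilies with more than 1 measured member, the brightest probe sets of all members were on the same side of equality, which was not tested. These 8 include Rab11, Rab27 and Rab3, where Rab11a, Rab27a and Rab3d also have measured probe sets on the opposite side. The exceptions were Rab2, Rab5 and Rab40. Some of the 8 rest on a value or bound near 0, such as 0.08 for Rab11b and 0.12 (a bound) for Rab33a. Of all measured genes 52.7% were higher in primitive HSC, and the share of same-side subfamilies was not computed for other genes. Rab1a and Rab1b differed from each other by 0.02 on the log2 scale, and Rab6a and Rab6b by 0.12. Rab11a and Rab11b, both nominally higher in primitive HSC, differed by 3.73 and Rab2a and Rab2b by 2.16. The SD between single probe sets of the same gene was 0.82 over 1318 genes, which is not the SD of a difference between 2 genes. Measured probe sets ran from -0.78 to 3.80 in Rab11a, from -2.25 to 0.64 in Rab2a and from -1.52 to 1.12 in Rab2b. The differences within Rab11 and Rab2 therefore did not exceed the spread between probe sets of these members.

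Directions also varied with brightness. Among the 886 brightest measured genes the median log2 ratio was 0.44 and 62.0% were higher in primitive HSC. Of the 6 Rabs among them, Rab11a was higher, while Rab10, Rab8b, Rab38, Rab1a and Rab18 were lower, with a median of -0.38. Of the other 9 of 10 equal bins by brightness, bin 4 held no Rab and the rest held Rabs on both sides. In bins 6, 7 and 8, 5 of 6, 4 of 5 and 5 of 6 Rabs were higher in primitive HSC, against 49.6%, 45.2% and 45.2% of all genes. In bin 3, 1 of 5 Rabs was higher, against 58.9% of all genes, and in bin 9, 1 of 3, against 49.2%. With so few members per bin these are descriptions of the 2 libraries. Genomic span, which tracked the ratio weakly over all genes (Spearman correlation -0.14 across 8837 genes of the 2 libraries), gave -0.15 across the 43 Rabs.

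**Figure D3:**
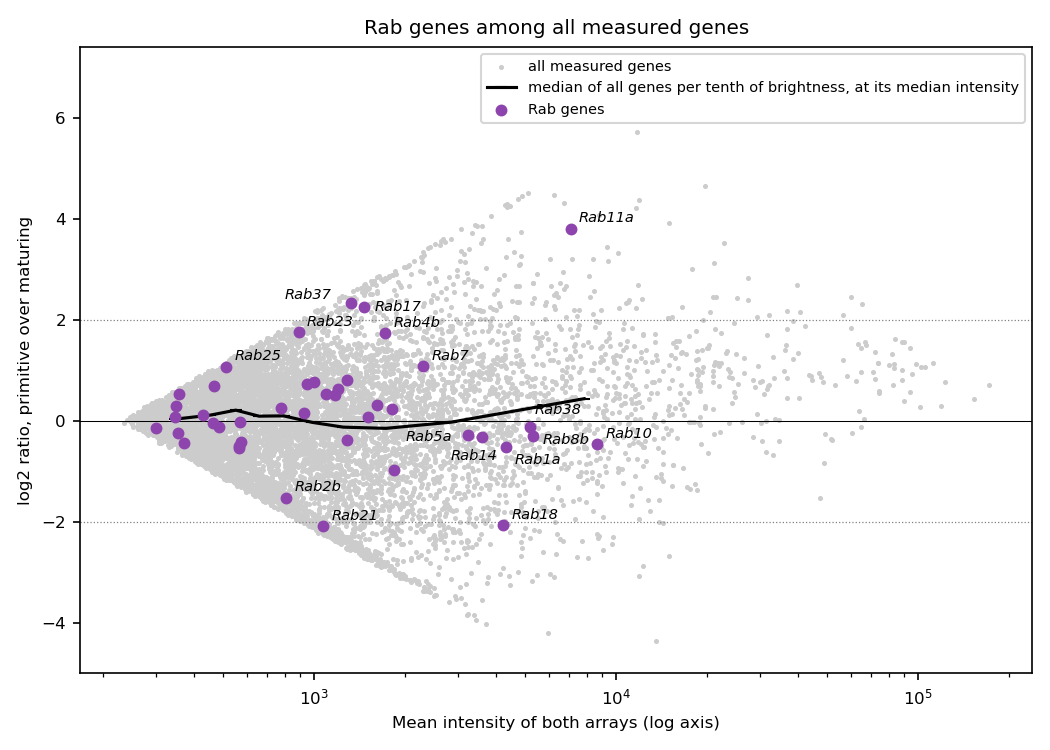
Log2 ratio (primitive over maturing HSC) against the mean intensity of both arrays (log axis) for all 8852 measured genes (grey) and the 43 measured Rab genes (purple). The black line joins the medians of 10 equal bins of genes by brightness, dotted lines mark 4-fold, and 5 of the 6 Rabs among the 886 brightest genes lie below 0 where the median of all genes is 0.44.

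The proteins that act on Rabs were read as lists by function. Among prenylation and GDI proteins, 5 of 7 genes on the array were measured, and 2 of these 5 gave only bounds. By their brightest probe sets all 5 differed by 2-fold or more, in both directions (2 toward primitive HSC, 3 toward maturing HSC). Of all measured genes 66.7% lay within 2-fold, and the difference of this short list from them was not tested. Gdi2, which extracts GDP-bound Rabs from membranes, read 1996 in primitive HSC and 12891 in maturing HSC, 6.46-fold higher in maturing HSC. All 6 of its measured probe sets were lower in primitive HSC, from -3.76 to -1.16 on the log2 scale. Chm, the Rab escort protein that presents new Rabs for lipid attachment, gave a bound of at least 2.62-fold in favour of maturing HSC, with 102 in primitive HSC and 1155 in maturing HSC.

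The other measured genes of this list went both ways. Rabif was below the floor in primitive HSC at 108 and read 1102 in maturing HSC, a bound of -1.32. Rabggtb, the catalytic subunit of Rab geranylgeranyl transferase, read 2854 in primitive HSC and 852 in maturing HSC, 3.35-fold higher in primitive HSC. Rabac1, a Rab acceptor that binds prenylated Rabs, read 16866 in primitive HSC and 3582 in maturing HSC, 4.71-fold higher in primitive HSC. The median of the 5 genes was -1.32, and -0.65 with each gene at the median of its probe sets. It was 1.74 for the 3 genes exceeding the floor in both populations, so the direction of the list depends on its bounds.

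Of 18 measured exchange factor genes, 8 were higher and 10 lower in primitive HSC, and their median log2 ratio was -0.46. Of 7 measured subunits of TRAPP, the exchange complex for Golgi Rabs, 4 were higher and 3 lower in primitive HSC. Trappc2 (-0.91), Trappc3 (-1.07) and Trappc10 (a bound of -0.88) were the lower ones, and Trappc1 was at 0.11. Trappc2l read 11804 in primitive HSC and 1865 in maturing HSC, 6.33-fold higher in primitive HSC. Trappc5 was 4.58-fold higher in primitive HSC by its brightest probe set (5811 against 1269), with the other at -0.46, and Trappc4 was 2.93-fold higher (6357 against 2168). Dennd5a, an exchange factor of the DENN family, was 2.40-fold higher in maturing HSC, with 1343 in primitive HSC and 3218 in maturing HSC.

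GTPase-activating proteins were lower in primitive HSC for 12 of 16 measured genes, and 4 were higher, with a median of -0.39, where 52.7% of all measured genes were higher. This difference was not tested. The median was negative under each of the 10 alternative settings run. One of these, scaling to the hybridisation controls, also moved the median of all genes to -0.74. Of the 16 genes, 6 exceeded the floor in both populations, with a median of -0.32. Another 8 were below the floor in primitive HSC and 2 in maturing HSC. Tbc1d8 stood apart with 3707 in primitive HSC and 493 in maturing HSC, 7.52-fold higher in primitive HSC. Tbc1d15, which acts on Rab7, was at least 4.76-fold higher on the maturing array (293 in primitive HSC and 2098 in maturing HSC), but its 3 probe sets ran from -2.25 to 1.40. Rabgap1l, a TBC-domain protein, was at least 2.83-fold higher on the maturing array (257 in primitive HSC and 1248 in maturing HSC). Tbc1d20, which acts on Rab1 and Rab18, was at least 2.53-fold higher on the maturing array (400 in primitive HSC and 1115 in maturing HSC), with a second probe set at 0.04.

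Of 26 measured effectors, 14 were higher and 12 lower in primitive HSC, with a median of 0.06. At 2-fold, 1 (3.85%) was higher in primitive HSC, against 15.6% of all genes, and 7 (26.9%) were higher in maturing HSC, against 17.6%, which was not tested. Eea1, the Rab5 effector that tethers early endosomes, read 2947 in primitive HSC and 862 in maturing HSC, 3.42-fold higher in primitive HSC. Gorasp2, a Golgi stacking protein bound by Rab2, was 5.69-fold higher in maturing HSC (754 in primitive HSC and 4290 in maturing HSC), with a second probe set at 0.12, and its relative Gorasp1 was at 0.06. Golga2, a Golgi tether that binds Rab1, was at least 2.89-fold higher on the maturing array (80.5 in primitive HSC and 1275 in maturing HSC). Rufy1, an endosomal effector of Rab4 and Rab14, was 2.65-fold higher in maturing HSC (480 in primitive HSC and 1271 in maturing HSC).

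Among other small GTPases, Arf and Arl genes had a median log2 ratio of -0.57 over 12 measured genes, and Ras, Ral and Rap genes had 0.05 over 19. Within 2-fold lay 76.7% of Rabs, 66.7% of Arf and Arl genes and 63.2% of Ras, Ral and Rap genes. Leaving out multi-transcript probe sets, the Arf and Arl median was 0.56. None of these differences between families was tested.

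Of the 4 genes furthest apart in each of these families, some had probe sets that disagreed. Arf6, which acts in endosomal recycling at the surface, read 620 in primitive HSC and 2985 in maturing HSC, and the Golgi GTPase Arl1 read 931 in primitive HSC and 3858 in maturing HSC, 4.82-fold and 4.14-fold higher in maturing HSC, although the 3 probe sets of Arf6 ran from -2.27 to 0.98. Arf4 read 3889 in primitive HSC and 8190 in maturing HSC (-1.07), with its 3 probe sets reaching 0.09. Sar1a, which builds COPII vesicles, read 13094 in primitive HSC and 5231 in maturing HSC (1.32), with a second probe set at -0.14. Rap1a, a regulator of integrin adhesion, read 456 in primitive HSC and 4536 in maturing HSC, 9.95-fold higher in maturing HSC. Nras read 1067 in primitive HSC and 3927 in maturing HSC (-1.88), with its 3 probe sets reaching 0.07. Rap2c gave a bound of at least 4.45-fold toward maturing HSC, and Rras a bound of at least 4.22-fold toward primitive HSC.

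**Figure D4:**
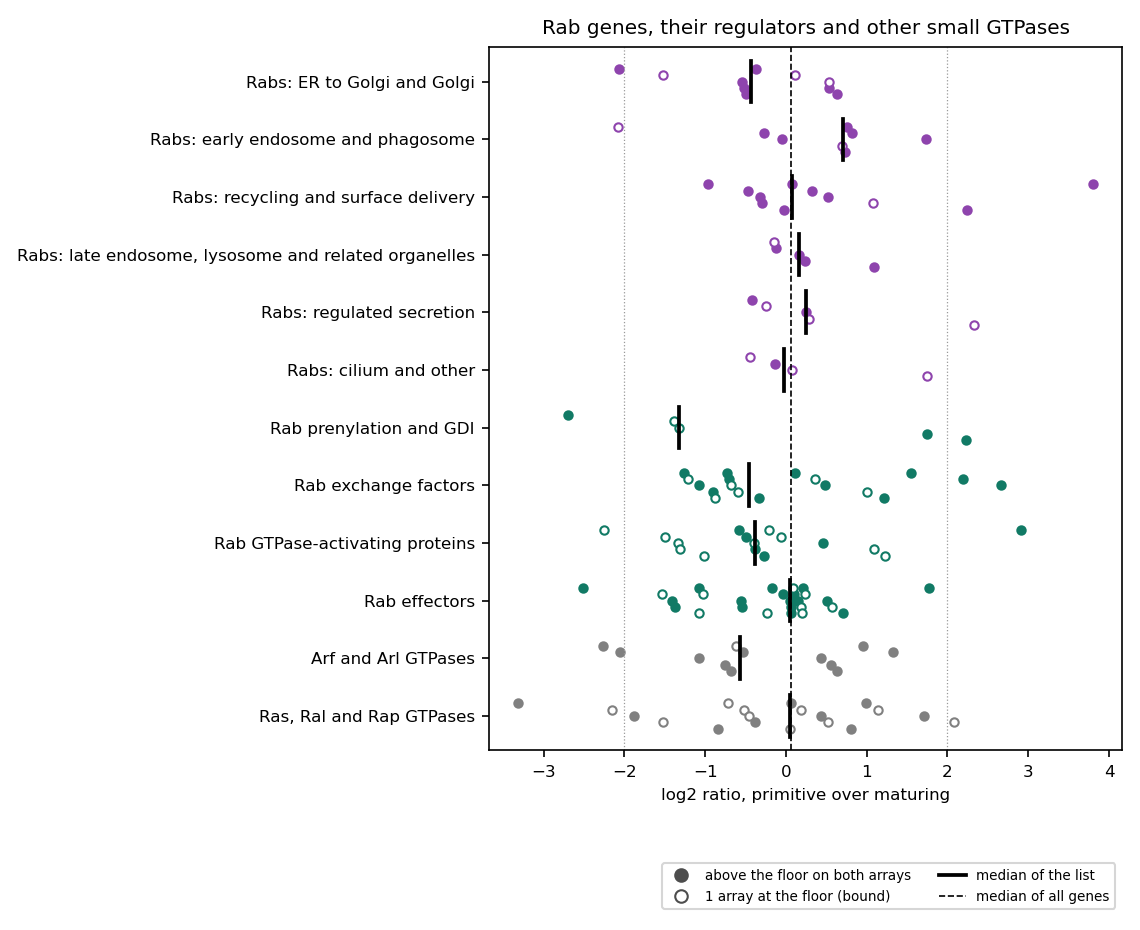
Log2 ratio (primitive over maturing HSC) of each measured Rab gene by compartment (purple), of Rab regulators and effectors (green) and of other small GTPases (grey), with 1 array per population. Open circles are bounds, black bars list medians, the dashed line the median of all genes (0.07) and dotted lines 4-fold. Golgi Rabs have a median of -0.43 and early endosome Rabs 0.71. These medians were -0.42 and -0.04 with multi-transcript probe sets left out, and -1.42 and -0.42 with scaling to the hybridisation controls.

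Markers of stem and other blood cells were read beside these results, as summed intensities over the genes of each list on the array, which the brightest probe sets dominate. All 10 stem and progenitor markers were measured and summed to 27695 in primitive HSC and 23011 in maturing HSC, with Procr and Cd34 the brightest. Of these 10 markers, 5 were higher and 5 lower in primitive HSC. Procr read 11571 in primitive HSC and 1895 in maturing HSC, a wider gap than that of the sum. Cd34 read 3320 in primitive HSC and 6237 in maturing HSC. Meis1 was below the floor in primitive HSC and Abcg2 and Mecom in maturing HSC. T and NK cell markers (5 of 7 measured) summed to 56527 in primitive HSC and 10694 in maturing HSC, with Ccl5 and Nkg7 the brightest. Ccl5 read 37795 in primitive HSC and 1511 in maturing HSC and made most of this difference, while Nkg7 read 6299 in primitive HSC and 7933 in maturing HSC. Of the T cell receptor complex, Cd3d read 8673 in primitive HSC and 44.2 in maturing HSC, while Cd3e and Cd3g were below the floor on both arrays. Klrd1 (1909 in primitive HSC and 343 in maturing HSC) and Gzma (1439 and 323 in the same order) were also higher in primitive HSC. In all, 4 of the 5 measured T and NK cell markers were higher in primitive HSC and 1 was lower. Neutrophil and monocyte markers (9 of 9 measured) summed to 125541 in primitive HSC and 63110 in maturing HSC, with S100a8 and Camp the brightest. Of these 9 markers, 7 were higher and 2 lower in primitive HSC, the lower ones being Ltf (737 in primitive HSC and 2284 in maturing HSC) and Mpo, which was below the floor in primitive HSC. B cell markers (4 of 5 measured) summed to 7198 in primitive HSC and 26106 in maturing HSC, led by Jchain and Cd79b, with Pax5 below the floor on both. Jchain read 5661 in primitive HSC and 23056 in maturing HSC and made most of the B cell difference. Of the 4 measured, 3 were lower in primitive HSC and 1 was higher, Cd79a (607 in primitive HSC and 493 in maturing HSC). Erythroid (2 of 4 measured; Klf1 and Epor), macrophage (4 of 5; Csf1r and Cd68 the brightest) and platelet markers (4 of 5; Pf4 and Itga2b the brightest) summed to between 3011 and 6406 in primitive HSC and between 1541 and 6379 in maturing HSC. Alas2, Hba-a1, C1qa and Ppbp of these lists were below the floor on both arrays. The part of such cells in the Rab results, Rab37 and Rab27a among them, was not tested.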

How the data were processed

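The deposited values are probe set intensities on a linear scale. They were made by the authors with MAS5, per the submitters' processing notes, and no MAS5 version is named there. The 2% trimmed means were 1000.6 for primitive HSC and 1000.4 for maturing HSC, and both arrays were brought to the same one. This scaling removes any overall difference in RNA content. Of 22690 probe sets, 20380 had a single symbol in the platform annotation, and 691 with several symbols named no gene. All 50 Rab symbols matched RefSeq through Entrez identifiers. Each gene took its brightest probe set by the mean of both arrays, values under 441.1 were set to that floor, and ratios are log2 of primitive over maturing HSC. A gene with 1 side at the floor gives a bound. Probe sets differ in their response, so their intensities are not compared as transcript levels. With 1 array per group no test was run, and the number of arrays limits the precision. Alternatives were the fold threshold, the scaling, the floor, the choice of probe set and the type of probe set. All Rab genes are named, with up to 4 genes of largest ratio or bound from each other list described and the 2 brightest of each marker list. One comparison list is not reported here. Members and lists were chosen with earlier results of these data known. The steps were tested on simulated data, with changes planted only in genes well above the floor and shared by all probe sets of a gene. That test therefore does not cover changes near the floor or probe sets that disagree. Computation used Python 3.11.15 with pandas 2.3.3, numpy 2.4.6, matplotlib 3.10.9, statsmodels 0.14.6 and scipy 1.17.1.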

Additional observations from a re-analysis of the deposited data

How the results depend on the processing

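The count of Rab genes at least 4-fold higher in primitive HSC was 3 in the reported setting. It was 7 at a 2-fold and 1 at an 8-fold threshold, and 6 with a floor at percentile 25. It was 1 with a floor at percentile 75, with each gene at the median of its probe sets, with multi-transcript probe sets left out, and with scaling to the hybridisation controls. The count at least 4-fold higher in maturing HSC was 2. It was 6 with scaling to the hybridisation controls, and 0 at 8-fold or at the median of probe sets. It was 1 after quantile normalization, with a floor at percentile 75, for genes exceeding the floor in both populations, and with multi-transcript probe sets left out. The Rab median of 0.08 became -0.79 with scaling to the hybridisation controls, where that of all measured genes was -0.74; those controls had a median log2 ratio of 0.97 over 18 probe sets. Under the 9 other settings it ran from -0.08, with multi-transcript probe sets left out, to 0.27, after quantile normalization. Rab11a became -0.78 with multi-transcript probe sets left out, because its remaining probe set points the other way. At the median of probe sets Rab37 was past 4-fold on the primitive side and no Rab on the maturing side. Not every gene had a value under every setting. With multi-transcript probe sets left out 38 Rabs were measured, and Rab12, Rab15, Rab17, Rab23 and Rab4b had no value. With a floor at percentile 75, 26 were measured. Apart from the hybridisation controls, 8 of 43 genes changed sign under some setting in which they had a value: Rab11a, Rab13, Rab14, Rab22a, Rab27a, Rab2b, Rab31 and Rab43. For the other changes the cause was not tested. Signal near the floor limits 13 of the 43 ratios to bounds. No paired analysis was possible because each population had 1 array.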
